A study of Mus musculus with 6 samples.

Results

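The 9 genes described here encode the enzymes that carry sterol synthesis from farnesyl diphosphate through squalene and lanosterol to cholesterol: Fdft1, Sqle, Lss, Cyp51, Msmo1, Nsdhl, Hsd17b7, Ebp and Dhcr7. They were chosen by name, with earlier results of these data known. All 9 were found among the 30702 genes with a value, each on 1 array row that names no other gene. The arrays compared mouse TH17-skewed CD4+ T cells kept for 3 days without glutamine (3 arrays) with the same cells kept for 3 days with glutamine (3 arrays). All cultures started from naive CD4+CD25-CD62L+CD44- T cells sorted by flow cytometry, were stimulated through CD3 and CD28, and received 10% fetal bovine serum, 20 ng/ml of IL-6, 20 ng/ml of IL-23, 1.25 ng/ml of TGFb and 10 ug/ml of antibodies that block IFNg, IL-4 and IL-12. The labels give neither the strain nor the age or number of mice, and call the arrays biological replicates without saying whether they came from separate animals, so the p-values reflect only the spread among these 6 arrays, which may be technical.

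Cells make cholesterol in the endoplasmic reticulum. Squalene synthase commits farnesyl diphosphate to sterols, squalene is epoxidised and folded into lanosterol, and lanosterol then loses its extra methyl groups and has its double bonds moved and reduced. When membrane cholesterol is low, the transcription factor SREBP2 (gene Srebf2) is released from the endoplasmic reticulum and switches on these enzymes together, while the INSIG proteins hold it back. Activated T cells use the pathway to build membrane as they grow and divide. The question these arrays address for this segment is how the enzyme transcripts of TH17-skewed cells differ when glutamine is absent from the medium.

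Levels are the authors' log2 values per array row, and each change is the average of the arrays without glutamine less the average of those with it. A 16-bit scanner cannot give log2 values over 16, yet such values stood on 854 to 887 rows of each array without glutamine and on 695 to 786 rows of each array with it. The scale may therefore have been stretched upstream, and no folds are given. The median level of an array lay between 4.33 and 4.38 without glutamine and between 4.18 and 4.21 with it. The values of the 9 genes lay between 6.28, for Dhcr7, and 12.88, for Cyp51, on all 6 arrays. In RNA of a whole culture, fewer cells with a transcript and less of it per cell cannot be told apart.

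Without glutamine, the transcripts of 8 of the 9 enzymes fell, and Ebp alone did not pass the test. Over all genes, 13.0% fell, 9.30% rose and 22.3% changed in either direction (limma, Benjamini-Hochberg adjusted p under 0.05). These shares depended on the setting: 3989 genes were lower and 2856 higher as deposited. Quantile normalization gave 5252 lower and 1455 higher, and centring gave 6128 lower and 1216 higher. The number higher was 1437 without replicate 2 with glutamine, and 1874, 1395 and 1691 without replicates 1, 2 and 3 lacking it. The groups did not overlap for 9 of the 9 genes, Ebp included, against 18.8% of all genes that lay lower without overlap. With adjusted p under 0.05, 7 of the 9 fell by at least 1 on the log2 scale, against 2.84% of all genes, and 4 fell by at least 2, against 0.521%. The median change of the 9 was -1.90, beside a median of 0.060 over all genes.

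**Figure D1:**
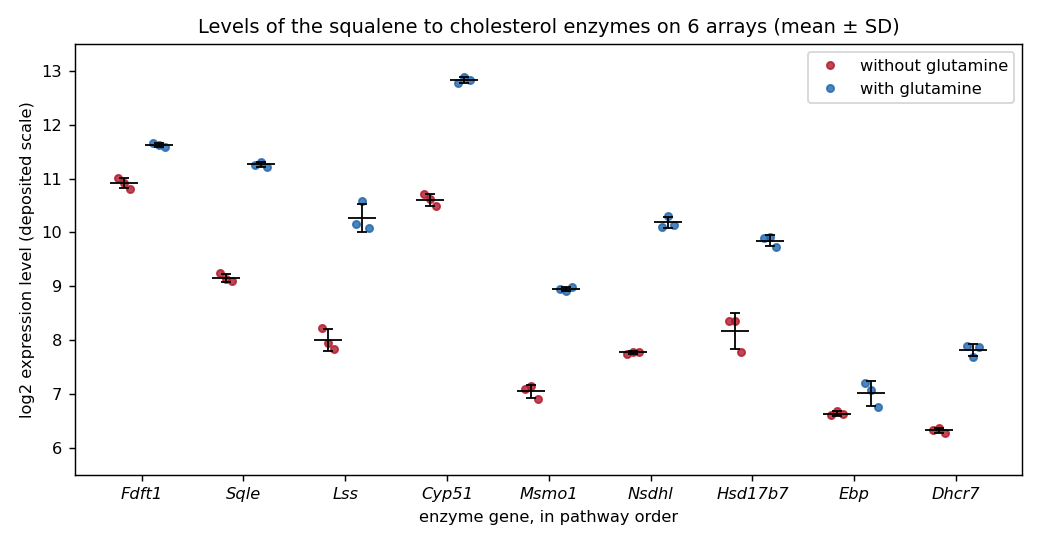
Log2 expression level (vertical axis, deposited scale) of the 9 enzyme genes in pathway order (horizontal axis) on the 3 arrays without glutamine (red) and the 3 with glutamine (blue); black bars are means with SD. Each red group lies below its blue group, with the widest distance for Nsdhl (change -2.41) and the narrowest for Ebp (-0.38).

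The transcripts of the enzymes that form and oxidise squalene both fell, by unequal amounts. Fdft1 encodes squalene synthase, which joins farnesyl diphosphate head to head and is the entry into the sterol branch. Its levels were 11.01, 10.92 and 10.82 in the cultures without glutamine, against 11.67, 11.62 and 11.59 in the cultures with glutamine. The groups stood 0.57 apart at their nearest arrays, and the change was -0.71 (95% interval -0.89 to -0.53, limma adjusted p = 0.0016). Sqle encodes squalene epoxidase, an oxygen-dependent enzyme and a control point of the pathway. It had levels of 9.24, 9.14 and 9.09 without glutamine, against 11.26, 11.31 and 11.22 with glutamine. Both groups were tight, and the change of -2.10 (95% interval -2.28 to -1.93, limma adjusted p = 6.78e-05) was far larger than either SD, 0.078 without and 0.044 with glutamine (n = 3 each).

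The transcripts of the enzymes that make and first demethylate lanosterol both fell, with changes of -2.27 and -2.22. Lss encodes lanosterol synthase, which folds the squalene epoxide into the first sterol. Its levels were 8.22, 7.95 and 7.83 without glutamine, against 10.16, 10.58 and 10.09 with glutamine. Replicate 2 with glutamine stood highest, and the change was -2.27 (95% interval -2.65 to -1.89, limma adjusted p = 0.000368). Cyp51 encodes the cytochrome P450 that removes the first methyl group of lanosterol. Its levels were 10.72, 10.62 and 10.49 without glutamine, against 12.78, 12.88 and 12.83 with glutamine. The nearest arrays of the groups were 2.07 apart, and the change was -2.22 (95% interval -2.41 to -2.03, limma adjusted p = 8.00e-05).

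Removal of the remaining methyl groups takes the enzymes of Msmo1, Nsdhl and Hsd17b7, and all of these transcripts fell. Msmo1 encodes the methylsterol monooxygenase that oxidises the methyl group. It had levels of 7.09, 7.15 and 6.91 without glutamine, against 8.95, 8.91 and 8.99 with glutamine, a change of -1.90 (95% interval -2.10 to -1.71, limma adjusted p = 8.83e-05). Nsdhl, on the X chromosome, encodes the dehydrogenase that takes the oxidised carbon off. Its levels were 7.74, 7.79 and 7.79 without glutamine, against 10.11, 10.31 and 10.15 with glutamine. This was the widest separation among the 9 genes, with 2.32 between the nearest arrays and a change of -2.41 (95% interval -2.60 to -2.23, limma adjusted p = 6.78e-05). Hsd17b7 encodes the ketoreductase that ends each round. Its levels were 8.36, 8.35 and 7.78 without glutamine, against 9.90, 9.91 and 9.73 with glutamine. Replicate 3 was the lowest array of each group for this gene, and the change was -1.68 (95% interval -2.08 to -1.28, limma adjusted p = 0.00123).

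Of the enzymes near the end of the segment, the transcript of the isomerase Ebp did not pass and that of the reductase Dhcr7 fell. Ebp, also X-linked, encodes the sterol isomerase that moves the ring double bond. Its levels were 6.60, 6.68 and 6.62 without glutamine, against 7.20, 7.07 and 6.76 with glutamine. The groups were 0.075 apart at their nearest arrays, because replicate 3 with glutamine lay close to the cultures without it. The change of -0.38 (95% interval -0.66 to -0.088) had limma adjusted p = 0.0692 and did not pass. When replicate 3 with glutamine was left out, the change of Ebp was -0.50 with limma adjusted p = 0.0113. With all 6 arrays kept, Ebp also passed after centring (-0.53, limma adjusted p = 0.0223), among genes above the median level (adjusted p = 0.049) and with array weights (-0.39, adjusted p = 0.0395), so its call depended on the setting. Dhcr7 encodes the reductase of dehydrocholesterol, whose reaction gives cholesterol. Its levels were 6.32, 6.36 and 6.28 without glutamine, against 7.89, 7.69 and 7.88 with glutamine. The change was -1.50 (95% interval -1.69 to -1.30, limma adjusted p = 0.000169), with SDs of 0.040 without and 0.12 with glutamine (n = 3 each).

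**Figure D2:**
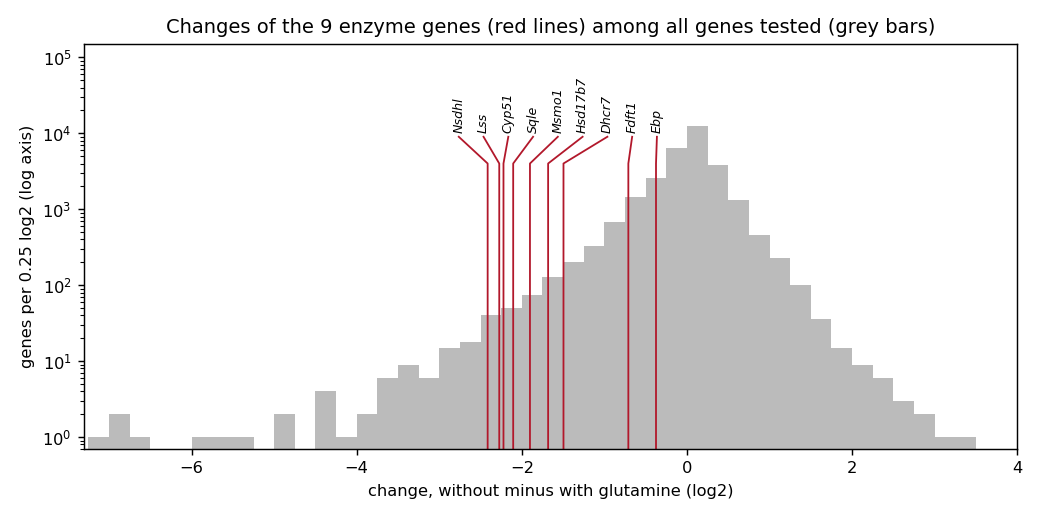
Number of genes (vertical log axis) by change in log2, without minus with glutamine (horizontal axis, bins of 0.25), for all 30702 genes in grey, with the 9 enzymes as red lines. From Nsdhl to Dhcr7 the lines lie in the lower tail, between -2.41 and -1.50, and Fdft1 (-0.71) and Ebp (-0.38) lie nearer to the bulk.

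The 9 changes were not of one size. Of 36 pairs of these genes, 21 had 95% intervals of the change that did not overlap, a description and not a test of the pairs. The intervals of Fdft1 and Ebp overlapped each other and that of no other enzyme. The interval of Dhcr7 overlapped only that of Hsd17b7. Sqle, Lss and Cyp51, which act one after another, had overlapping intervals. Probes of different rows can respond unequally to the same change in RNA, so the order of these sizes is an order of array values. Among all 30702 genes, 82 fell further than Nsdhl, 361 further than Dhcr7, 1747 further than Fdft1 and 4125 further than Ebp.

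Promoter sequences of members were examined because the transcripts fell together. RefSeq promoter windows of GRCm38.p6, from 250 bases before to 50 bases after an annotated start, were matched for 7 of the 9 genes in 9 windows, of which 3 belong to Dhcr7. The 6 windows printed here are those of the genes with a single start. Lower case marks the sequence, and capitals mark every CCAAT, the box bound by NF-Y, and every TCACNNCA, a loose form of the sterol regulatory element bound by SREBP, on either strand, so that their reverse complements are capitals too.
Lss, chr10:76531355-76531654, plus strand: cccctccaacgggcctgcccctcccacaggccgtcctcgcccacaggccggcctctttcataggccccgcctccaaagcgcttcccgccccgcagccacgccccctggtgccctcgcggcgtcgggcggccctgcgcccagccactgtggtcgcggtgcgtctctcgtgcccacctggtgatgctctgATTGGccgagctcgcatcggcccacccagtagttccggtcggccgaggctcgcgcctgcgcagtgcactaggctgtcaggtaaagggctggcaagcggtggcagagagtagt
Cyp51, chr5:4104648-4104947, minus strand: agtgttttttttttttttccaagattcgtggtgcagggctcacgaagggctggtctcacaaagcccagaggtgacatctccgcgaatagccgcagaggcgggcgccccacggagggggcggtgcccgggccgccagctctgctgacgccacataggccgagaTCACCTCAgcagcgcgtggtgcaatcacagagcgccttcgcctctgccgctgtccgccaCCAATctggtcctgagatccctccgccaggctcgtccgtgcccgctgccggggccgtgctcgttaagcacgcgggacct
Msmo1, chr8:64733529-64733828, minus strand: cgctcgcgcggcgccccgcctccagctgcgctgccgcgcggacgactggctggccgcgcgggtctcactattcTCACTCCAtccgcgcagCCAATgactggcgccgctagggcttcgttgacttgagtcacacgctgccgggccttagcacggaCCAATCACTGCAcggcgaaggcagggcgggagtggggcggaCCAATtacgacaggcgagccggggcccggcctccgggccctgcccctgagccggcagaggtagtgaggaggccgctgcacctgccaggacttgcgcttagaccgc
Nsdhl, chrX:72918271-72918570, plus strand: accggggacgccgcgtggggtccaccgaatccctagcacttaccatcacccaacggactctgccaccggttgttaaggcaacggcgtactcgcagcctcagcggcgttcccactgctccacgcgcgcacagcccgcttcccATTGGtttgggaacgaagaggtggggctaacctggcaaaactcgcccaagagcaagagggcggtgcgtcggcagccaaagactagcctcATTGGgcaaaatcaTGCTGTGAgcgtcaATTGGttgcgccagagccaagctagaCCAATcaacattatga
Hsd17b7, chr1:169969156-169969455, minus strand: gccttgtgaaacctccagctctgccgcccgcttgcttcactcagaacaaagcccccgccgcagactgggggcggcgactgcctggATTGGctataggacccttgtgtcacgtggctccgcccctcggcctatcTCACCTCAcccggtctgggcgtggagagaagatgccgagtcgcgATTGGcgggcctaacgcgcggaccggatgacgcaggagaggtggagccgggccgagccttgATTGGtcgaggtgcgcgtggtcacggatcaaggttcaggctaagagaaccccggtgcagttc
Ebp, chrX:8193463-8193762, minus strand: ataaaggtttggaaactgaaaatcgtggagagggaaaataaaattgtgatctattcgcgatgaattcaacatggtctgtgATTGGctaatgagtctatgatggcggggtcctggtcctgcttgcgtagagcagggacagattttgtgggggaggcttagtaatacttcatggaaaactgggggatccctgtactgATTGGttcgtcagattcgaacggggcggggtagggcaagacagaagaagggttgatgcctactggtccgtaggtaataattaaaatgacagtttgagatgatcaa
In the Cyp51 window the loose element reads TCACCTCA and starts 88 bases before the annotated start, and the CCAAT lies 29 bases before it. Hsd17b7 holds the same letters TCACCTCA, starting 117 bases before its start. In Msmo1 a CCAAT and the TCACTGCA after it share 1 base.

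CCAAT was found in 7 of the 9 windows, in at least 1 window of each of the 7 genes, against 37.4% of all 32851 windows of the same length. Nsdhl held 4 copies, Msmo1 and Hsd17b7 held 3 each, Ebp held 2, and Lss and Cyp51 held 1 each. TCACNNCA was found in 6 of the 9 windows, those of Cyp51, Msmo1, Nsdhl, Hsd17b7 and 2 of Dhcr7, against 13.8% of all windows. The windows of Lss, which fell by 2.27 on the log2 scale, and of Ebp, which did not pass, held no such match. The stricter form TCACNCCAC was found in 0 of the 9 windows and in 1.24% of all. GGGCGG, the GC box bound by SP1, was found in 8 of the 9 windows against 35.7% of all, and CACGTG, an E-box, in 2 against 7.15%. The GC content of the 9 windows ran from 45.3% for Ebp to 71.0% for Lss, beside a median of 52.7% over all windows. These matches describe letters within short windows, and the motifs were chosen with the changes known.

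**Figure D3:**
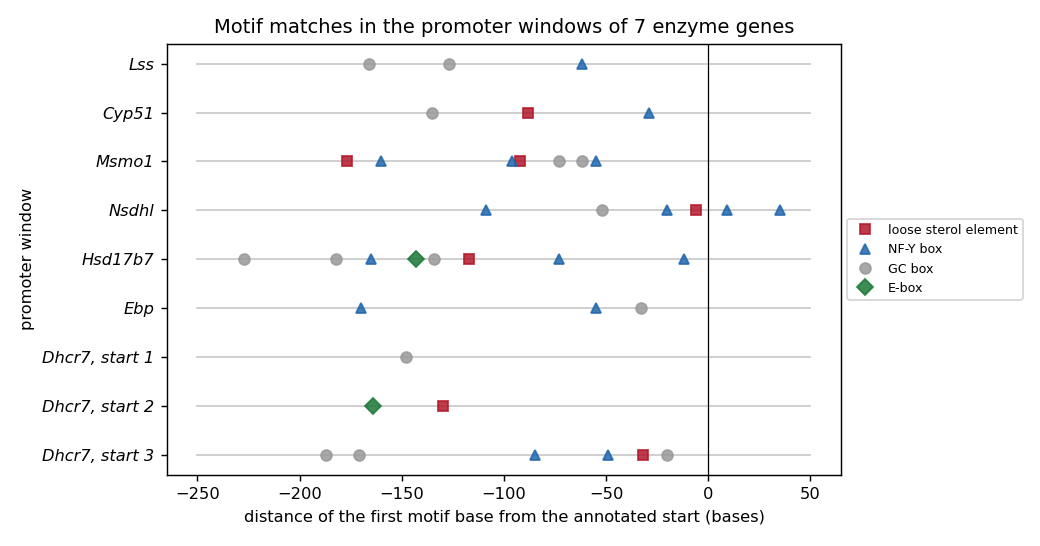
Position of motif matches relative to the annotated start (horizontal axis, bases, 0 at the start) in the 9 promoter windows of 7 enzyme genes (vertical axis): loose sterol element (red squares), NF-Y box (blue triangles), GC box (grey circles) and E-box (green diamonds). Nsdhl has 4 NF-Y boxes, and no loose sterol element appears for Lss or Ebp.

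The steps before squalene fell as well. Of 9 genes listed for the mevalonate arm, 7 had a value and 7 fell, against 13.0% of all genes, with a median change of -2.15. Hmgcs1, which makes hydroxymethylglutaryl-CoA, had levels of 10.76, 10.51 and 10.36 without glutamine, against 13.67, 13.86 and 13.57 with glutamine, and its change of -3.16 (limma adjusted p = 8.83e-05) was larger than that of any of the 9 enzymes. Fdps, which supplies the farnesyl diphosphate that Fdft1 uses, changed by -2.52 (limma adjusted p = 0.000853). Idi1 and its paralogue Idi2, isomerases of isopentenyl diphosphate, changed by -2.15 and -2.18. Idi2 had 2 rows, and with the mean over them its change was -2.09. Fdft1, at -0.71, therefore stood between 2 neighbours in the pathway, Fdps and Sqle, with larger falls, and its interval overlapped neither of theirs.

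Other genes of the late sterol steps moved in both directions. Of 6 listed, 3 had a value, of which 2 fell and 1 rose, against 13.0% and 9.30% of all genes. Lbr, which encodes the lamin B receptor, also a sterol reductase, had levels of 11.32, 11.14 and 11.41 without glutamine, against 13.16, 13.09 and 12.82 with glutamine, and fell by 1.73 on the log2 scale (limma adjusted p = 0.000334). Sc5d, the sterol desaturase that acts just before Dhcr7, changed by -1.11 (limma adjusted p = 0.000531). Erg28, whose yeast counterpart is known to hold the demethylating enzymes together, rose by 0.44 as deposited (limma adjusted p = 0.0119), with levels of 12.85, 12.75 and 12.62 without glutamine, against 12.24, 12.29 and 12.36 with glutamine, but did not pass after quantile normalization (0.32, adjusted p = 0.0519) or after centring (0.29, adjusted p = 0.0549).

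**Figure D4:**
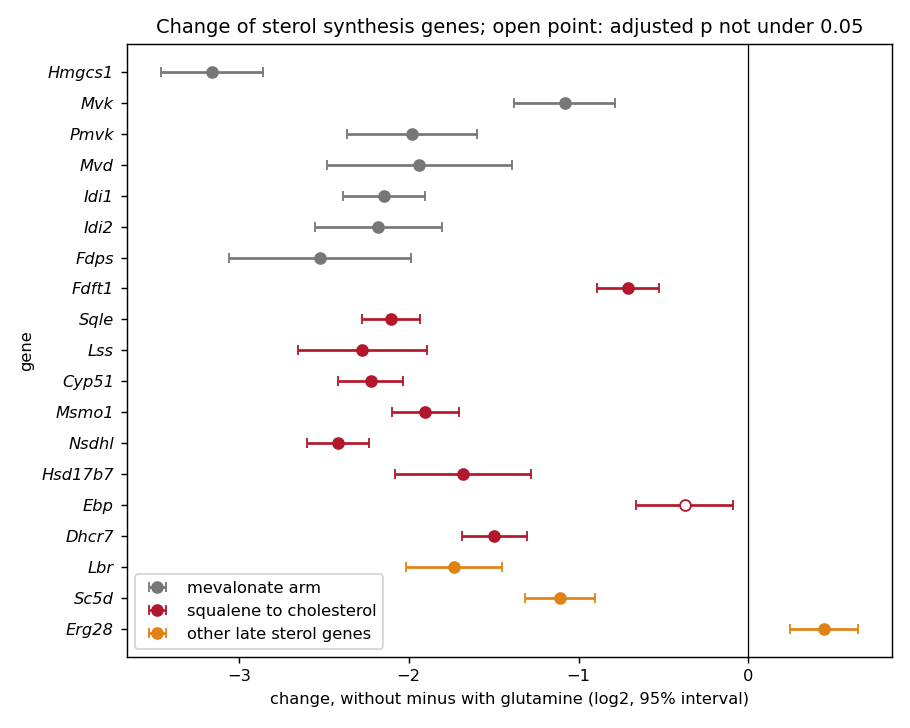
Change in log2, without minus with glutamine, with its 95% limma interval (horizontal axis) for the genes of the mevalonate arm (grey), the 9 enzymes (red) and other late sterol genes (orange), in rows; open points did not pass adjusted p under 0.05. Intervals of all but Ebp and Erg28 lie below -0.5, and Erg28 (0.44) lies above 0.

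Genes that sense and move sterols fell less uniformly. Of 23 listed, 17 had a value, of which 7 fell, 1 rose and 9 did not pass, against 13.0% of all genes that fell and 9.30% that rose, with a median change of -0.11. The count of 7 ran from 5 to 7 with single arrays left out. It was 5 with the unmoderated statistic and 5 at adjusted p under 0.01. Srebf2, which encodes SREBP2, had levels of 11.69, 11.52 and 11.75 without glutamine, against 12.59, 12.44 and 12.58 with glutamine, a change of -0.89 (limma adjusted p = 0.0012). Insig1, itself a known SREBP target, fell by 2.66 on the log2 scale, Stard4, a sterol carrier, fell by 2.59, and Scarb1, a lipoprotein receptor, fell by 1.38 (limma adjusted p at most 0.000353). The 1 gene that rose, Nr1h3, which encodes a liver X receptor and is named after its values were seen, changed by 0.33 (limma adjusted p = 0.0169). Its call ended without replicate 2 with glutamine (0.32, adjusted p = 0.057), without replicate 2 lacking glutamine (0.29, adjusted p = 0.061), after quantile normalization (0.14, adjusted p = 0.225) and after centring (0.17, adjusted p = 0.123).

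Partners of the oxygen-dependent enzymes changed unequally. Sqle, Cyp51 and Msmo1 take electrons through reductases or cytochrome b5. Of 8 genes listed for electron supply and protein partners, 7 had a value, of which 4 fell and 1 rose, against 13.0% and 9.30% of all genes. Cyb5b, which encodes a cytochrome b5 of the outer mitochondrial membrane, had levels of 10.66, 10.43 and 10.12 without glutamine, against 11.97, 11.97 and 11.99 with glutamine, a change of -1.57 (limma adjusted p = 0.000757). Cyb5r1, a cytochrome b5 reductase, had levels of 10.75, 10.09 and 10.15 without glutamine, against 8.52, 8.74 and 8.66 with glutamine, a change of 1.69 (limma adjusted p = 0.00161). Cyb5r3, another cytochrome b5 reductase, went the other way, with a change of -0.41 (limma adjusted p = 0.0313). Its adjusted p ran from 0.00703 to 0.101 under the alternatives. Cyb5a, another cytochrome b5, did not pass (-0.29, limma adjusted p = 0.0973). Por, the listed gene without a value, was not measured here. Pgrmc1, a haem protein that binds P450 enzymes, changed by -0.80 (limma adjusted p = 0.00732) and its relative Pgrmc2 by -0.57 (limma adjusted p = 0.00314).

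Farnesyl diphosphate also feeds products other than sterols. Of 11 genes listed for those branches, 9 had a value, of which 4 fell and 5 did not pass, against 13.0% of all genes that fell, with a median change of -0.16. Ggps1, which makes geranylgeranyl diphosphate, changed by -0.85 (limma adjusted p = 0.00406). Pggt1b, Nus1 and Fnta, of protein prenylation and dolichol synthesis, changed by -0.59, -0.55 and -0.52. The call of Pggt1b ended without replicate 1 or 2 with glutamine (-0.59 and -0.57) and without replicate 2 or 3 lacking it (-0.55 and -0.49), that of Nus1 without replicate 2 with glutamine (-0.53), and that of Fnta without replicate 1, 2 or 3 lacking it (-0.53, -0.56 and -0.46). The count of 4 was 2 without replicate 2 with glutamine and 2 without replicate 2 or replicate 3 lacking glutamine.

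The arrays carried the defining transcripts of CD4 T cells. Of 7 CD4 T cell markers with a value, 2 rose and 1 fell, against 9.30% and 13.0% of all genes. Their mean levels per array were 14.47 to 14.54 without and 14.37 to 14.49 with glutamine. All 5 TH17 markers with a value fell, against 13.0% of all genes. Their summed log2 level was 39.4 to 41.1 without and 62.7 to 65.97 with glutamine. The proliferation genes Mki67 and Top2a changed by -0.86 (limma adjusted p = 0.00504) and -1.03 (limma adjusted p = 0.000601). Of 12 measured markers of B cells, dendritic cells, NK cells and erythroid cells, 0 passed in limma, against 22.3% of all genes. The erythroid gene Alas2 alone had an unadjusted limma p under 0.05 (0.0152). Of 6 macrophage and monocyte markers 1 passed, a share near the 22.3% of all genes. This was Lyz2, at 4.14 ± 0.14 without and 5.80 ± 0.33 with glutamine (SD, n = 3). The summed level of the list was 23.0 to 23.5 without and 24.7 to 25.4 with glutamine. Csf1r, Adgre1, Cd14, Itgam and Mrc1 were at or below 4.30 on average in both groups, close to the array medians. Of the CD8 markers, Cd8a averaged 3.78 without and 3.83 with glutamine, and Cd8b1 fell by 0.71 on the log2 scale (limma adjusted p = 0.0117). The summed level of Cd8a and Cd8b1 was 11.02 to 11.27 without and 11.74 to 12.04 with glutamine. The part of these shifts in the falls of the 9 enzymes was not tested.

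Genes with values most like the mean of the 9 enzymes were found over the 6 arrays by root mean square distance, after centring each gene on its own mean. Predicted genes, with symbols of Gm and a number or holding Rik, were left out of this search. The 5 nearest were Gfpt2 (distance 0.048 log2, change -1.63), Tmem41b-ps (0.053, -1.69), Mcm3 (0.058, -1.59), Kpna2 (0.071, -1.59) and Slc15a3 (0.073, -1.74). Kpna2 had 3 rows, and these values are those of its brightest row. With the mean over its rows its change was -1.80. Among the 9 enzymes themselves, Msmo1 lay nearest to their mean at 0.13, with 39 of the searched genes nearer, and Ebp lay farthest at 0.67. With 6 arrays in 2 groups, such a distance is set mostly by the size of the group difference.

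The 9 changes were computed again under 15 other settings of the analysis. Each of the 7 enzymes with the larger falls stayed between -2.57 and -1.46, and Fdft1 between -0.87 and -0.66. Only quantile normalization, centring, array weights and leaving out an array could move a change, and the other settings altered only its adjusted p.

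**Figure D5:**
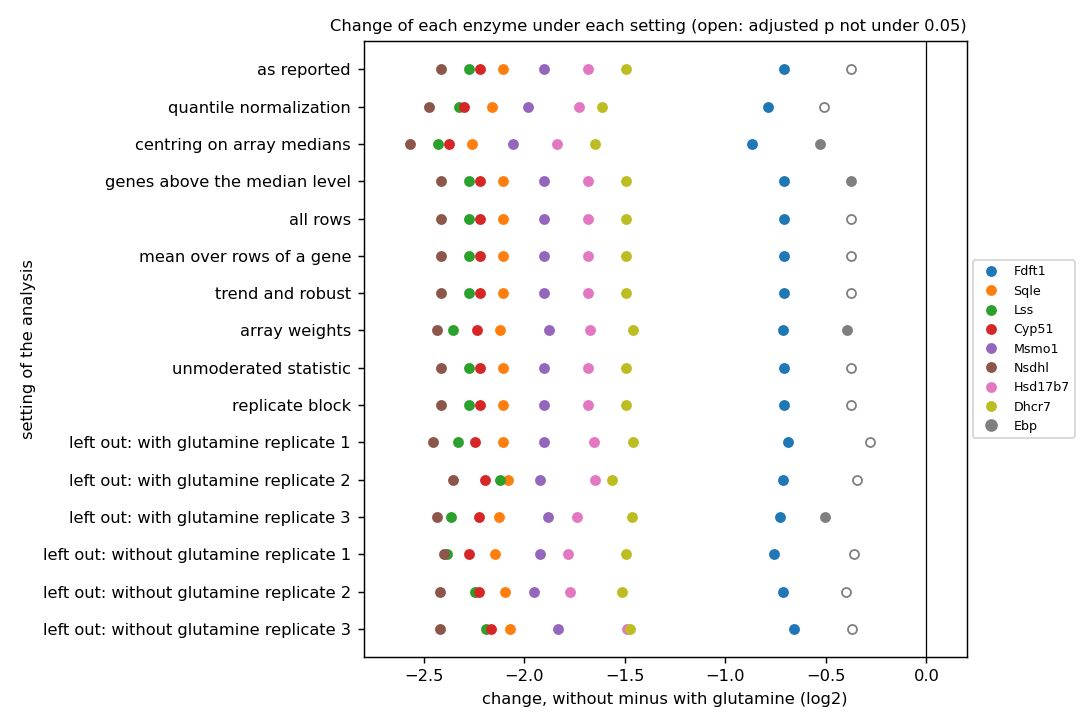
Change of each of the 9 enzymes in log2, without minus with glutamine (horizontal axis), as reported and under 15 other settings of the analysis (rows); open points did not pass adjusted p under 0.05. The 7 enzymes with the larger falls lie between -2.57 and -1.46 in every row and Fdft1 between -0.87 and -0.66, and Ebp passes in 4 of the rows. Rows other than quantile normalization, centring, array weights and arrays left out repeat the reported change by construction.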

How the data were processed

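The authors deposited log2 expression levels for each row of the arrays. Per the submitters' processing notes they were made with RMA, which corrects background, normalizes arrays and summarises probes, in Transcriptome Analysis Console 4.0. Its options, the annotation and the genome build are not given in the sources. The 6 columns were used unchanged (0 columns of other samples). Rows were named through the platform annotation, with symbols updated through RefSeq (GRCm38.p6): of 65956 rows, 31258 named 1 gene, 1492 several and 33206 were unnamed here. Taking the brightest row of each gene left 30702 genes, dim ones included.

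All genes were fitted together in R 4.3.3 (lmFit and eBayes of limma 3.58.1, no covariate, two-sided p), with Benjamini-Hochberg adjustment over all genes and a threshold of 0.05. The test was tested on simulated data with 200 changed genes. The members, lists and motifs were chosen with earlier results of these data known. Named genes are the 9 enzymes, up to 4 genes of each list, taken by size of change among those that passed, Srebf2 and Mki67. The 5 nearest genes, with predicted genes left out of the search, are named too. Nr1h3, Cyb5r3, Cyb5a, Por and single markers were named after the values were seen. A gene that the rule also takes is not reported here. Alternatives covered normalization, filters, rows, variance models, thresholds, the replicate block and each array left out. The number of arrays limits the precision. Figures used matplotlib 3.10.9 in Python 3.11.15.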

Additional observations from a re-analysis of the deposited data

How the results depend on the processing

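The 8 falls passed under every alternative run, except that Fdft1 (-0.71) misses a required change of at least 1 log2. In all, 0 of the 153 results for the 9 enzymes changed sign. Only quantile normalization, centring, array weights and leaving out an array could move a change. The other alternatives leave the change of these genes as it is and bear only on the call. Ebp, at adjusted p = 0.0692 as reported, passed after centring (-0.53, adjusted p = 0.0223), among genes above the median level (adjusted p = 0.049), with array weights (-0.39, adjusted p = 0.0395) and without replicate 3 with glutamine, within a range of 0.0113 to 0.179. The median change of the 9 was -1.98 after quantile normalization and -2.06 after centring, which put the median of all genes at -0.048 and -0.095, and it ran from -1.95 to -1.83 when single arrays were left out. Over all genes the number higher was 1455 after quantile normalization, 1216 after centring, 1415 with the unmoderated statistic, 801 at adjusted p under 0.01 and 381 with a change of at least 1; the number lower was 5252, 6128, 2418, 2143 and 872 in the same order. Leaving out single arrays gave 1395 to 2490 higher and 2666 to 4012 lower. With a change of at least 1 required, 3 genes of sterol sensing and transport, 1 of electron supply and 0 of the isoprenoid branches were lower. The isoprenoid count was 1 with the unmoderated statistic, 1 at adjusted p under 0.01 and 2 to 4 with single arrays left out. The labels do not say whether replicate numbers pair the arrays. Deviations of same-numbered arrays correlated at 0.066, -0.23 and 0.28 over genes, and those of differently numbered arrays at -0.33 to 0.30. With 3 arrays per group, these values cannot decide whether the arrays were paired. With the replicate block, 2549 genes were higher and 3744 lower, and 8 of the 9 enzymes were lower. No alternative could separate culture from array effects, since the labels give no batch.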

Other observations

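Among the cultures without glutamine, replicate 3 had the lowest level for 7 of the 9 enzymes and replicate 1 the highest for 5. Among the cultures with glutamine, replicate 3 had the lowest level for 5 of the 9 and replicate 2 the highest for 5. The mean over the 9 enzymes, each centred on its own mean over the 6 arrays, was -0.77, -0.81 and -0.96 log2 in the arrays without glutamine, against 0.86, 0.90 and 0.78 log2 in those with glutamine, so the arrays of a group lay within 0.2 log2 of each other.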
